A study of Homo sapiens with 2 samples.

Results

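The 43 genes described here encode the coats, small GTPases, cargo receptors and adaptors that carry proteins between the endoplasmic reticulum (ER) and the Golgi. They were named as a list (COPI coat, COPII coat and assembly factors, p24 or TMED family, cargo receptors with a SNARE, ARF GTPases and ARF GAPs), and a gene counted as bound where a listed RBMS3 site lay within it on its own strand. Of the 43 genes, 36 held at least 1 site, and they held 235 of the 27706 sites of the whole list. RBMS3 is an RNA-binding protein, and its sites were mapped by CLIP-seq, in which ultraviolet light links the protein to RNA and the RNA recovered with the protein is sequenced. The cells were MDA-MB-231, an established human line of triple-negative breast cancer cells, stably transduced with a lentiviral vector (EF1α promoter) for RBMS3 with an N-terminal FLAG tag, and the antibody was against the tag. There was 1 group, FLAG-tagged RBMS3, with 2 biological replicates and no control group. The endogenous RBMS3 gene was left in place, and the line expresses it. For replicate 2 the labels disagree on the number of the line, and it was taken as MDA-MB-231, the name in its title.

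The replicates were pooled before sites were called, so each value below is a single pooled count with no error between replicates, and no test between samples could be made. A site is a base at which sequenced RNA fragments (tags) carried a deletion, which the method reads as the place where the reverse transcriptase met the crosslinked protein. For each site the list gives the number of tags that cover it and the number with the deletion. The share of tags with the deletion is given with a 95% Wilson interval, which covers counting error only. RNA levels were not measured here, so more tags on a transcript and more copies of that transcript cannot be told apart. Of the mesenchymal genes that mark this line, 6 of 6 held sites (VIM, CD44, CAV1, AXL, SPARC and MSN). SPARC, however, held only 1 site, with the deletion in 51 of 52 tags. Among 8 luminal genes, GATA3, EPCAM and KRT19 held 1 site each and ESR1, PGR, ERBB3, FOXA1 and CDH1 held none. The luminal share with a site, 37.5%, was near the 37.6% of all protein-coding genes.

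In the early secretory pathway, newly made proteins leave the ER in vesicles with a COPII coat. The GTPase SAR1 starts the coat, SEC23 and SEC24 form its inner layer and choose cargo, and SEC13 with SEC31 form its outer cage. COPI, a coat recruited to the Golgi by ARF1, returns escaped ER proteins and receptors. The p24 proteins cycle in both kinds of vesicle as membrane adaptors for cargo. The 3′ end of an mRNA is made by cleavage a short way downstream of a poly(A) signal, most often AATAAA and less often ATTAAA (written as DNA), followed by addition of the poly(A) tail.

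The sequences around the sites with the most deletions show where these lay with respect to that signal. They are hg38 reference sequence, read on the transcript strand from 5′ to 3′, with the signal and the deleted base in capitals. The first 6 belong to the members with the most deletions at a single site, at chr11:118602891-118602920 (ARCN1, plus strand), chr3:100748936-100748965 (TFG, plus), chr11:14457522-14457551 (COPB1, minus), chr1:228099181-228099210 (ARF1, plus), chr14:75134258-75134287 (TMED10, minus) and chr14:39031919-39031948 (SEC23A, minus), all in annotated 3′UTRs.
ARCN1: gcaaattcTttaatcaAATAAAgcgcatta
TFG: tgataggttAATAAAgatgaTtgaatccat
COPB1: aattttTgttattttataAATAAAtgatta
ARF1: agctattagAATAAAatctcTtaactattt
TMED10: atgtcatttTagacaATTAAAatatttgtg
SEC23A: aaatgccAATAAAatatactttTcactgtt
In each of these 6 windows the deleted base was a T outside the signal. It lay upstream of the signal in ARCN1, COPB1 and TMED10 and downstream of it in TFG, ARF1 and SEC23A.

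The next windows show the p24 members, in which sites often lay far from an annotated end, with SEC22B and SAR1A for the same reason or for a site next to the signal. They lie in the 3′UTRs at chr5:115613509-115613538 (TMED7, minus), chr12:123598104-123598133 (TMED2, plus), chr5:177596055-177596084 (TMED9, plus), chr1:93154355-93154384 (TMED5, minus), chr1:120155206-120155235 (SEC22B, minus) and chr10:70150205-70150234 (SAR1A, minus).
TMED7: aatttcttgtagAATAAAaaaaaatctttc
TMED2: ccccaggttcGgtaAATAAAcaattctttt
TMED9: tcattttcAATAAAtgtaggTttgttacat
TMED5: cttaggtgattTaAATAAAtgagtattggg
SEC22B: cagcaatgaAATAAAtactTgtagaatgtt
SAR1A: cctaagcatttTAATAAAaagttaaaacaa
In TMED7 the deleted base was the T of the signal itself, letter 15 of the window. In TMED2 it was a G, a few bases before the signal.
The last pair shows leading sites with neither hexamer in the window, at chr2:46901917-46901946 (MCFD2, minus) and chr3:139357583-139357612 (COPB2, minus).
MCFD2: atagctcattatttTgaaagatttatatat
COPB2: ctcataaaacctttTgaattaatgaaggta

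The 36 bound members were 83.7% of the 43, against 37.6% of all 20046 protein-coding genes with at least 1 site on their strand. That background counts genes that these cells may not transcribe, and what the difference owes to RNA level was not tested. All 36 bound members, 83.7% of the 43, held a site in an annotated 3′UTR, against 31.8% of all protein-coding genes. All 36 also held a 3′UTR site with the deletion in under 30% of tags, against 27.6% of all protein-coding genes. Most bound genes of any kind held a 3′UTR site, 6371 against 7542 protein-coding genes with any site. A site with at least 50 deletions was present in 32 members (74.4%, background 24.8%), and a site with at least 200 deletions in 14 members (32.6%, background 7.2%). The median bound member held 5.5 sites, with a range of 1 to 20, against a median of 2 over all bound genes.

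**Figure D1:**
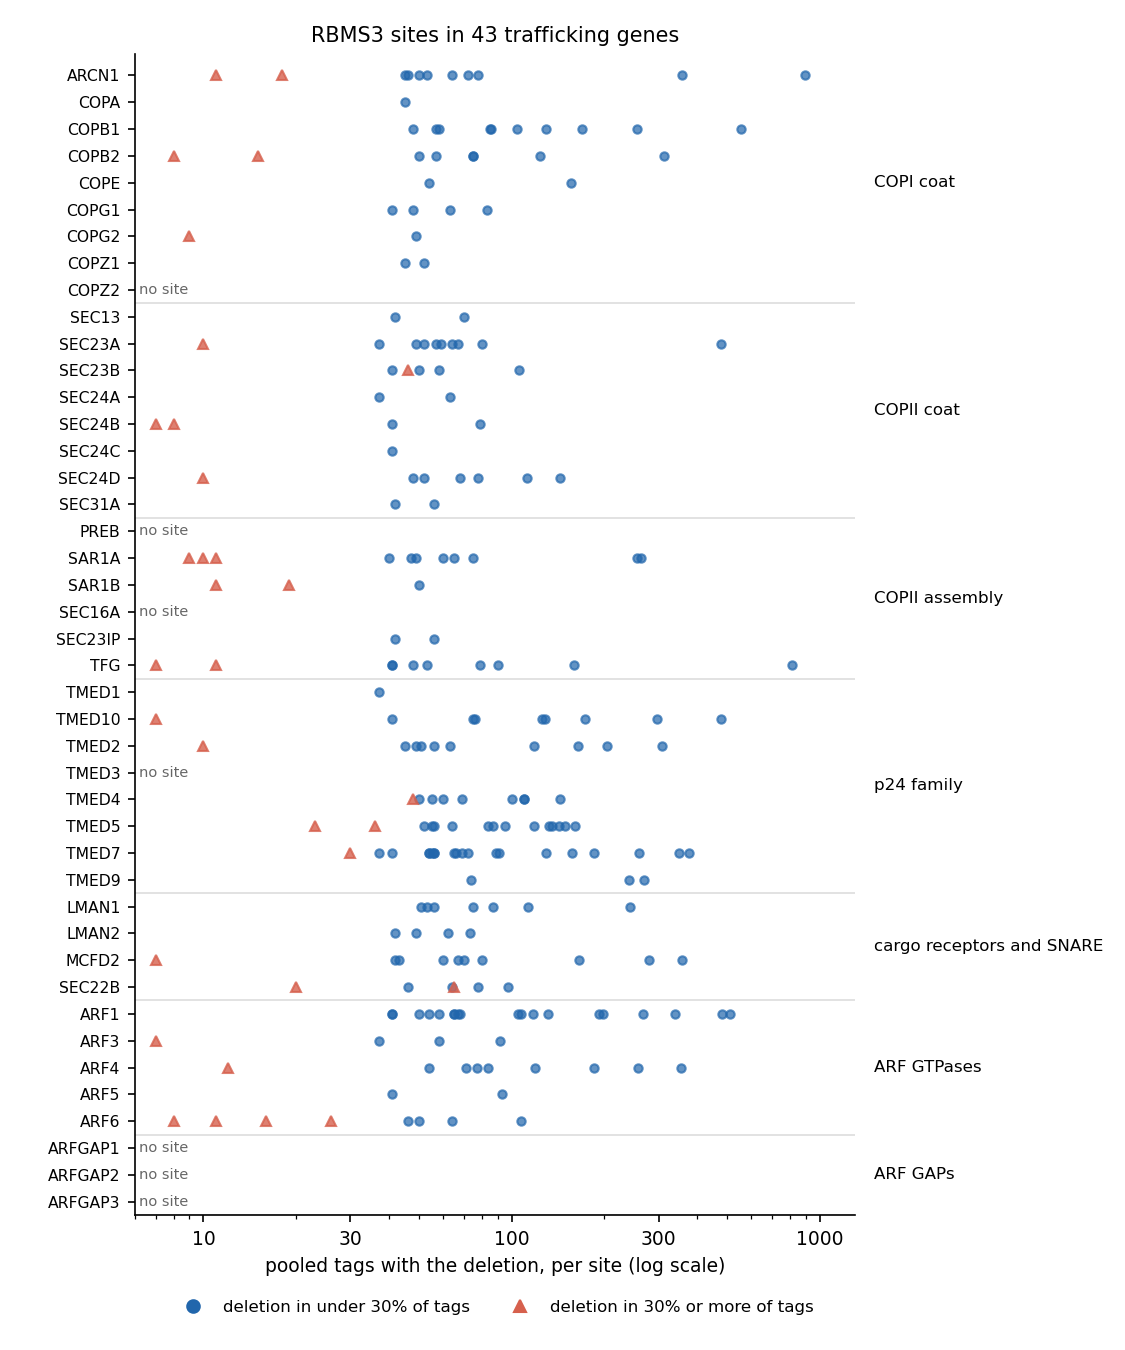
Each point is a listed site, placed by the number of pooled tags with the deletion (log scale), in the row of its gene, for 43 genes grouped by role. Circles are sites with the deletion in under 30% of tags and triangles those with 30% or more. The highest sites are those of ARCN1 (894 deletions) and TFG (809), and 7 genes have no site.

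The sites were divided at a deletion share of 30%. In 203 sites the deletion was in under 30% of tags, and these had a median of 12720 tags (range 218 to 48990) and from 37 to 894 deletions. The other 32 sites (13.6%, all genes 24.5%), in 20 members, had a median of 14 tags (range 7 to 206), and at 20 of them every tag carried the deletion. All 203 sites of the first class lay in 3′UTRs (all genes, 93.7%). Of the 32 sites of the second class, 22 lay in 3′UTRs (68.8%, all genes 42.7%), 7 in introns, 2 in coding sequence (SAR1A and SEC24B) and 1 in a 5′UTR (TFG). A site counted as 3′UTR where any transcript of the gene placed it there. In 1 representative transcript per gene, 8 of the 225 3′UTR sites lie elsewhere. Among them, a SEC22B site with 206 tags and a TMED4 site with 140 tags lie in introns. A COPB2 site with 15 tags and an ARF4 site with 14 tags lie in coding sequence of that transcript. The others are COPB2 sites outside that transcript. The depths of the classes met without a gap, at 206 tags (SEC22B, 31.6%) and 218 tags (COPB2, 26.1%). No site of the first class had fewer than 37 deletions, so at low depth only a high share could be listed, and the fall of the share with depth in the plot is partly set by the list.

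**Figure D2:**
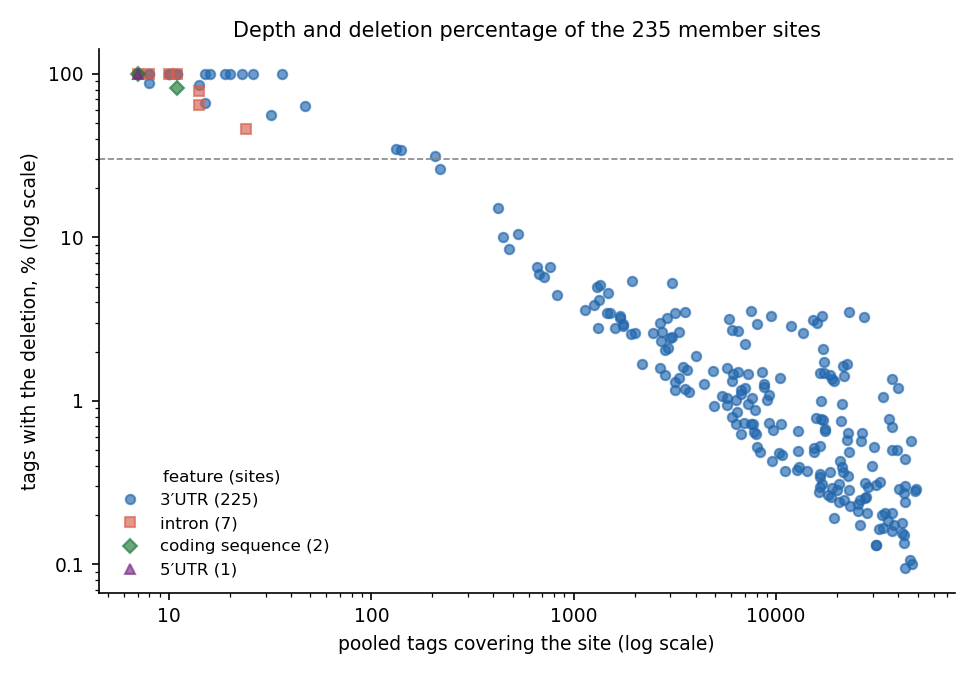
Each point is a site in a member gene, with the pooled tags that cover it on the horizontal axis and the percentage of them with the deletion on the vertical axis, both on log scales, and with symbols for the annotated feature. The dashed line is at 30%. A site is drawn as 3′UTR where any transcript of the gene places it there. With that rule, all sites below the line are in 3′UTRs, and the intronic, coding and 5′UTR sites have 24 tags or fewer.

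Of the COPI coat, 8 of 9 subunit genes were bound, with 40 sites. The δ subunit gene ARCN1 carried the most deletions of any member site, 894 of 27300 tags (3.27%, interval 3.07% to 3.49%), 29 nt upstream of an annotated 3′ end. It lay in a cluster of 8 sites across 59 nt, and the other sites of that cluster had shares of 0.17% to 1.06%. COPB1, which encodes β-COP, had 555 deletions in 16810 tags (3.30%, interval 3.04% to 3.58%) at 33 nt from an end, with all its 10 sites in 1 cluster of 67 nt. In each gene the leading site, chosen as the one with the most deletions, also had the highest share of its cluster. That choice itself favours a high share, so the gap to the other sites is a description only. Both leading sites are a T within a run of T, and deletions anywhere in a run are listed at its lowest coordinate, so these counts may cover several bases.

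COPB2, which encodes β′-COP, held 8 sites in 5 clusters. Its leading site had 312 deletions in 9397 tags (3.32%, interval 2.98% to 3.70%), 192 nt from an annotated end. The last cluster before its farthest annotated end had 124 deletions in 3535 tags (3.51%, interval 2.95% to 4.17%), 11 nt from that end. Another place, 26 nt from another annotated end, had 57 deletions in only 218 tags (26.1%, interval 20.8% to 32.4%). The remaining clusters of COPB2 were single sites with 8 of 8 and 15 of 15 tags deleted. The cluster at the farthest end, the place with 218 tags and the site with 8 tags lie outside the representative COPB2 transcript. They lie opposite noncoding exon or intron sequence of MRPS22. The site with 15 tags is coding in the representative transcript. The leading cluster lay opposite the 3′UTR of MRPS22, and since the list keeps strand these 3 sites were counted for COPB2 only.

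COPE, the ε subunit, had 156 deletions in 7021 tags (2.22%) in the closing A run of its poly(A) signal. COPA, the α subunit, had a single site of 45 deletions in 1605 tags. COPZ1, a ζ subunit, had 52 deletions in 1502 tags and a second site of 45 in 446 tags, while its paralogue COPZ2 had no site. The γ subunit paralogues differed in depth. COPG1 had 4 sites in 1 cluster, with up to 12800 tags and shares of 0.38% to 0.65%. COPG2 had a 3′UTR site with 49 deletions in 1265 tags (3.87%, interval 2.94% to 5.08%) opposite the 3′UTR of MEST, and an intronic site with 9 of 14 tags.

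All 8 genes of the COPII coat were bound, with 33 sites. SEC23A, an inner coat subunit that activates the SAR1 GTPase, had 476 deletions in 15878 tags (2.998%, interval 2.74% to 3.27%) at 7 nt from the annotated end. Its paralogue SEC23B was covered less deeply, and its leading site had 106 deletions in 1945 tags (5.45%, interval 4.53% to 6.55%) at 70 nt from the end. The intervals of these leading sites did not overlap, and the sites also differed in depth. Over all listed sites of the same clusters, shares ran from 0.30% to 2.998% in SEC23A and from 2.05% to 34.8% in SEC23B. These ranges overlap, so the order of the paralogues depends on the sites compared.

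The cargo-binding SEC24 paralogues were all bound, at very different depths. SEC24D had up to 22930 tags, with 144 deletions in 22601 tags at its leading site (0.64%) 5 nt from the end. SEC24B had 79 deletions in 7602 tags (1.04%) 451 nt from an annotated end. SEC24A had 63 in 2712 tags (2.32%), and SEC24C a single site of 41 in 1133 tags (3.62%). In the outer cage, SEC13 had 70 deletions in 7277 tags (0.96%) at 6 nt and SEC31A had 56 in 3475 tags (1.61%) at 44 nt from an end.

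Of the 6 COPII assembly genes, 4 were bound. TFG, which organises ER exit sites, had 809 deletions in 22965 tags (3.52%, interval 3.29% to 3.77%), 7 nt from an annotated end. The base before it, an A, had 53 deletions in 23232 tags (0.23%, interval 0.17% to 0.30%). The leading T is followed by another T, so its count may cover both bases of that run. SAR1A, one of the paralogous GTPases that start the coat, had 11 sites in 5 clusters. Its main cluster of 7 sites had up to 46865 tags, among the deepest of all members, and held 262 deletions in 46153 tags (0.57%, interval 0.50% to 0.64%) next to the signal and 256 in 17270 tags (1.48%, interval 1.31% to 1.68%) farther upstream. A separate SAR1A cluster had 40 deletions in 671 tags (5.96%, interval 4.41% to 8.02%), 297 nt from an annotated end and 13 nt past the start of an AATAAA. The other 3 SAR1A clusters had 10 of 10, 11 of 11 and 9 of 11 tags deleted, the last in coding sequence. SAR1B had 50 deletions in 1750 tags (2.86%) and 2 sites with every tag deleted. SEC23IP, a SEC23 partner, had 56 deletions in 530 tags (10.6%) and 42 in 2658 tags (1.58%), 367 and 381 nt from annotated ends. PREB, which encodes the exchange factor for SAR1, and SEC16A, a scaffold of ER exit sites, had no site.

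**Figure D3:**
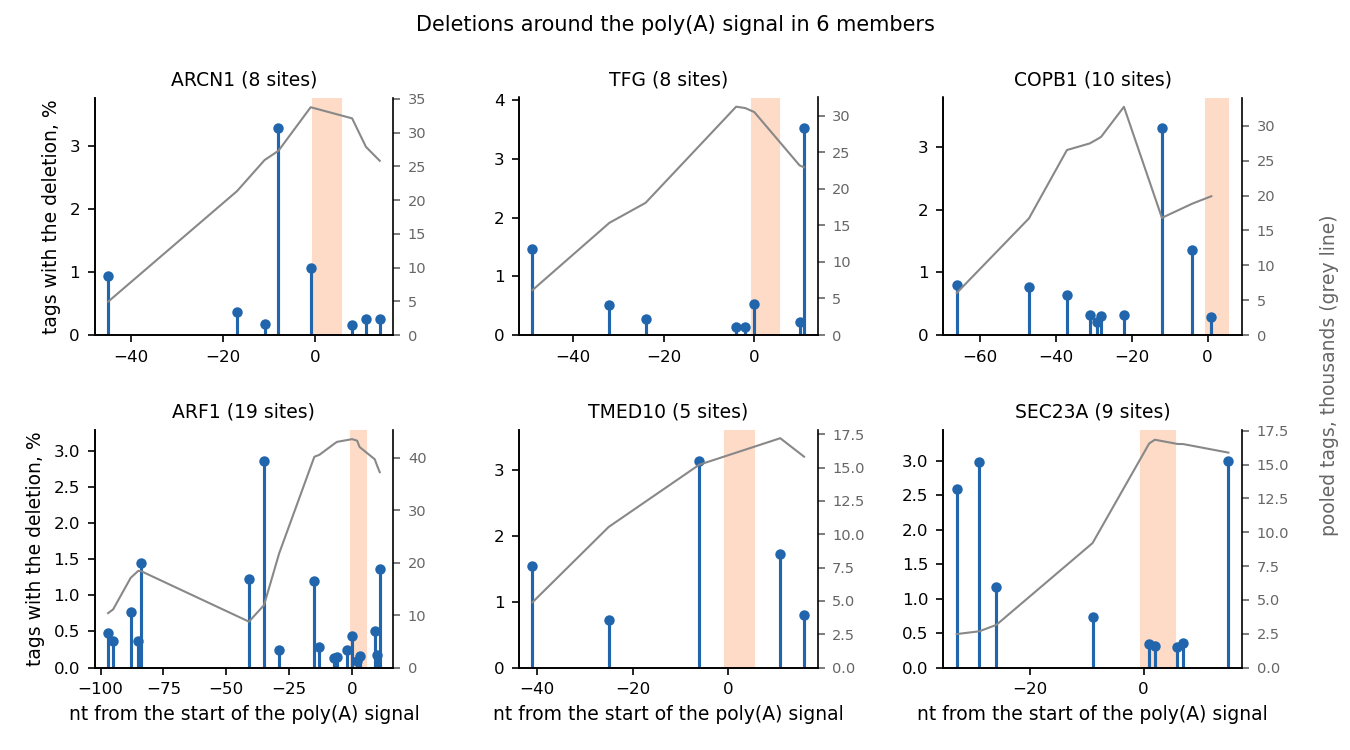
For the 6 members with the most deletions at a single site, blue stems give the percentage of tags with the deletion at each listed site of the leading cluster (left axis) and the grey line the tags that cover those sites, in units of 1000 (right axis), by distance in nt along the transcript from the start of the poly(A) signal nearest to the leading site, which is shaded. The axes differ between panels. Tags were most numerous near the shaded signal except in COPB1. There they peaked farther upstream, 16 nt past the start of another AATAAA that is not shaded. The highest stem of each panel lies outside the shaded bases.

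The p24 family had 7 of 8 members bound and the most sites of any role, 67, all in 3′UTRs. TMED7 held the most sites (20) and the most clusters (7) of all members. Its main cluster had 11 sites across 74 nt, with 375 deletions in 22322 tags (1.68%, interval 1.52% to 1.86%) at 314 nt from the annotated end. Only 1 site, with 69 deletions in 1341 tags (5.15%, interval 4.09% to 6.46%), lay at that end itself, 8 nt away. Farther upstream, 4 clusters had leading sites of 65 in 1301 tags (5.00%, interval 3.94% to 6.32%) at 594 nt, 72 in 2720 tags (2.65%, interval 2.11% to 3.32%) at 742 nt, 41 in 481 tags (8.52%, interval 6.35% to 11.4%) at 1035 nt and 56 in 4403 tags (1.27%, interval 0.98% to 1.65%) at 1745 nt. The first 3 of these had a poly(A) signal within 25 nt of the deletion and the fourth had none. The seventh cluster was a single site with 30 of 47 tags deleted (63.8%, interval 49.5% to 76.03%) at 2829 nt. All TMED7 sites also lie inside an intron of the readthrough gene TMED7-TICAM2, so the 2 transcripts cannot be told apart there.

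TMED5 held 15 sites in 6 clusters. Its deepest cluster had 10 sites with up to 48990 tags, the most of any member site, at shares of only 0.17% to 1.20%, and its leading site had 149 deletions in 26357 tags (0.57%, interval 0.48% to 0.66%) at 38 nt from an annotated end. The TMED5 site with the most deletions stood alone, with 161 in 3054 tags (5.27%, interval 4.53% to 6.12%) at 141 nt from an annotated end and 2 nt before an AATAAA. Single sites with 87 deletions in 3309 tags (2.63%, interval 2.14% to 3.23%) and 52 in 1761 tags (2.95%, interval 2.26% to 3.85%) lay 29 and 441 nt from an end, each with an AATAAA within 25 nt. The other clusters were 23 of 23 and 36 of 36 tags deleted. TMED5 and TMED7 thus had sites at several signals along a long 3′UTR rather than at the last annotated end alone.

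TMED10 had 477 deletions in 15212 tags (3.14%, interval 2.87% to 3.42%) at 340 nt and a second group of sites led by 173 in 6480 tags (2.67%, interval 2.30% to 3.09%) at 25 nt from an annotated end. TMED2 had 307 deletions in 21535 tags (1.43%, interval 1.28% to 1.59%) at 468 nt from an end, and none of its 10 sites lay within 100 nt of one. TMED9 had its 3 sites at 1145 to 1167 nt from its single annotated end, led by 269 deletions in 7546 tags (3.56%, interval 3.17% to 4.01%). TMED4 had 143 deletions in 10400 tags (1.38%) at 28 nt from an end. TMED1 had a single site of 37 in 2186 tags (1.69%), and TMED3 had none.

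**Figure D4:**
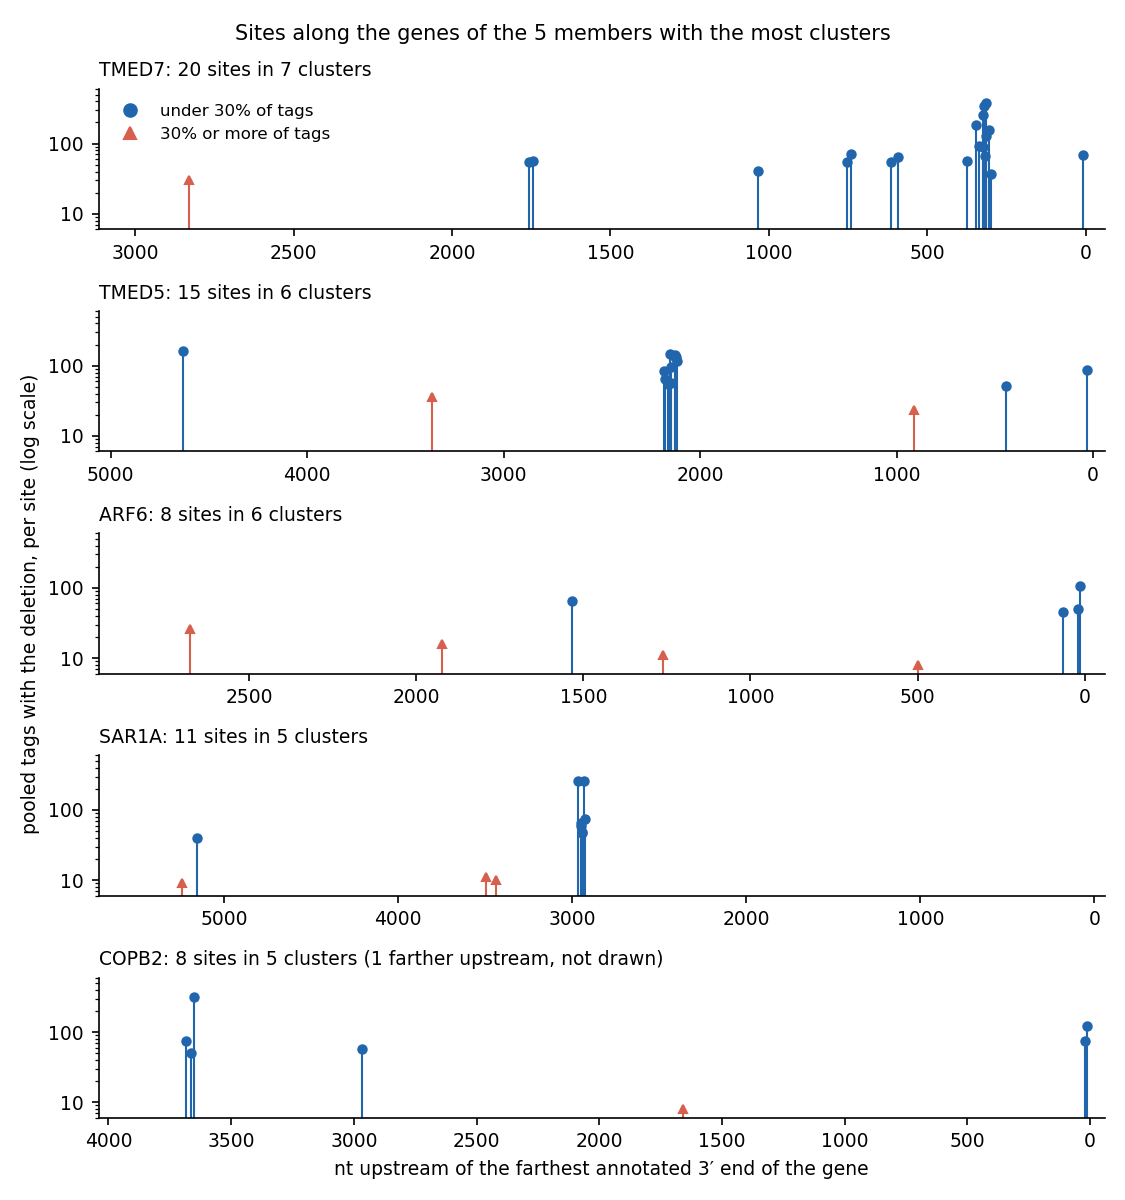
For TMED7, TMED5, ARF6, SAR1A and COPB2, each stem is a listed site, placed by its distance in nt upstream of the farthest annotated 3′ end of the gene, with the pooled tags that carry the deletion on a log axis. Blue circles are sites with the deletion in under 30% of tags and red triangles those with 30% or more. The densest groups of sites lie away from the farthest end in TMED7, TMED5 and SAR1A and at it in ARF6, and 1 site of COPB2 (15 tags) lies outside the range drawn.

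The cargo receptors LMAN1 and MCFD2, which together carry clotting factors out of the ER, were both bound. MCFD2 had 356 deletions in 13601 tags (2.62%, interval 2.36% to 2.90%) at 58 nt from an end, and 280 in 36082 tags (0.78%) inside the signal downstream of it. LMAN1 had 243 deletions in 16412 tags (1.48%, interval 1.31% to 1.68%) at 12 nt from its only annotated end, in 1 cluster of 7 sites. LMAN2, another lectin receptor of the same pathway, had up to 3528 tags and a leading site of 73 deletions in 2997 tags (2.44%). SEC22B, a SNARE of ER and Golgi vesicles, had 97 deletions in 6492 tags (1.49%, interval 1.23% to 1.82%) at 4318 nt from the nearest annotated end, in 4 sites around an AATAAA, and 65 in 206 tags (31.6%, interval 25.6% to 38.2%) at 7 nt from another annotated end.

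All 5 ARF GTPase genes were bound, with 42 sites. ARF1, which recruits COPI to the Golgi, had 19 sites in 1 cluster of 108 nt and the highest sum of deletions of any member, 2956. Its leading site had 510 deletions in 37209 tags (1.37%, interval 1.26% to 1.49%) at 11 nt from an end, and 481 in 40142 tags lay at 37 nt. The highest share in ARF1 was 2.86% (340 of 11877 tags, interval 2.58% to 3.18%) at 57 nt. ARF4 had 354 deletions in 17048 tags (2.08%, interval 1.87% to 2.30%) at 5 nt from an annotated end. ARF5 had 93 in 2903 tags (3.20%) and ARF3 had 92 in 5749 tags (1.60%), the first at 7 nt and the second at 496 nt from an end. Sites of ARF3 and ARF5 also lay inside another annotated gene on the same strand.

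ARF6, which acts at the plasma membrane, held 8 sites in 6 clusters. The cluster at its end had 107 deletions in 7275 tags (1.47%, interval 1.22% to 1.77%) at 10 nt. A single site at 1530 nt had 64 in 423 tags (15.1%, interval 12.03% to 18.9%), 10 nt before an AATAAA. The other 4 had every tag deleted, at 26, 16, 11 and 8 tags. The 3 ARF GAP genes, ARFGAP1, ARFGAP2 and ARFGAP3, which switch ARF1 off, had no site. Over all protein-coding genes only 37.6% held a site, so genes without one are common. The other roles were larger, and each had at least 4 bound genes. A gene without a site is one at which no deletion passed the filters at the depth of these libraries, and its RNA may have been present. The median canonical 3′UTR of the 7 unbound members was 1086 nt (range 261 to 1917), and that of the 36 bound members 1321.5 nt (range 165 to 6140).

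Over all members, 143 of 225 3′UTR sites (63.6%, interval 57.1% to 69.6%) lay within 100 nt of an annotated 3′ end downstream, against 69.1% over all genes. For sites under 30% the share was 69.0% (140 of 203, all genes 75.96%), and for the others 13.6% (3 of 22, all genes 22.5%). The intervals treat sites as independent, although sites of a gene share its RNA. Among sites under 30%, the range that departed most from all genes was 201 to 500 nt, with 34 of 203 sites (16.7%, interval 12.2% to 22.5%) against 5.42%. Of these 34 sites, 23 came from TMED7 (11), TMED2 (7) and TMED10 (5), so this share rests mainly on 3 genes of the p24 family.

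**Figure D5:**
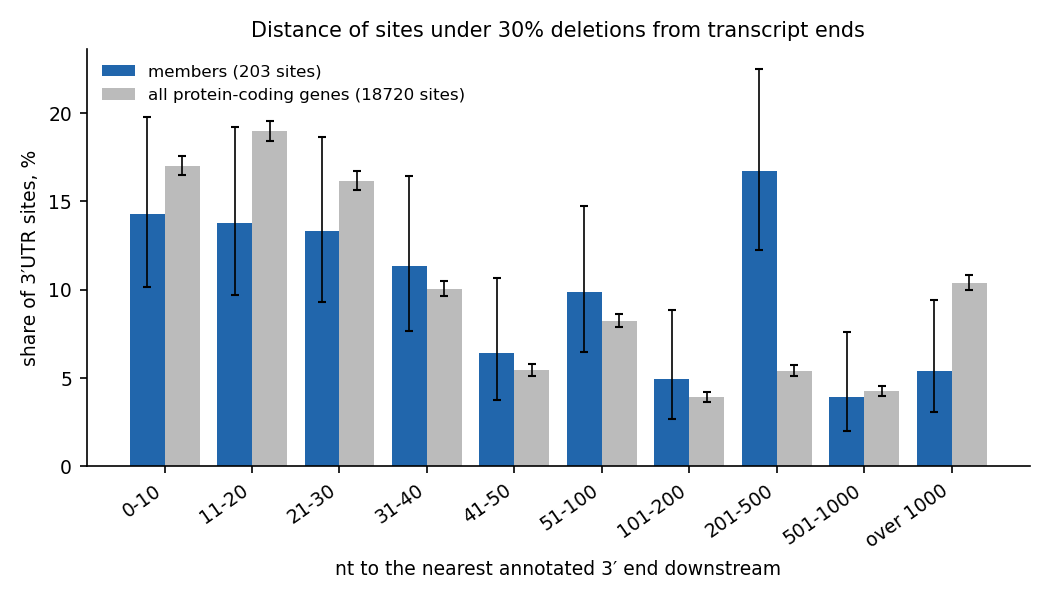
Bars give the percentage of 3′UTR sites with the deletion in under 30% of tags in each range of distance to the nearest annotated 3′ end downstream, for 203 sites of members (blue) and 18720 of all protein-coding genes (grey), which include the members. Error bars are 95% Wilson intervals and treat sites as independent. The members stand above all genes at 201 to 500 nt (16.7% against 5.42%).

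A poly(A) signal was common where the members' deeper sites lay. Sites within 50 nt of each other formed a cluster, and the 51-nt window centred on the most deleted of them was searched on the transcript strand. AATAAA or ATTAAA was present in 47 of 55 3′UTR clusters led by a site under 30% (85.5%, interval 73.8% to 92.4%), against 75.3% over all genes. It was present in 1 of 21 clusters led by a site of 30% or more (4.76%, all genes 19.4%). For comparison, 8.69% of the 1507 51-nt tiles of the members' canonical 3′UTRs and 7.18% of such tiles over all genes held either hexamer. Among the 20 clusters under 30% that lay over 100 nt from an annotated end, 17 held a signal (85.0%, interval 64.0% to 94.8%, all genes 63.0%). They came from 12 genes: TMED1, TMED2, TMED5, TMED7, TMED9, TMED10, ARF3, ARF6, SAR1A, SEC22B, SEC23IP and SEC24B. The 3 without one were in TMED7, COPB2 and SEC24A. The libraries were made by adding a poly(A) tail to the recovered RNA and priming with oligo(dT), so RNA that already ends in a tail can be captured the same way, and the part of this in the position of the sites was not tested.

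The AUA motif linked to RBMS3 in the study was searched as the pattern NNATANA with A, G or T at its first base and A or T at its second and sixth. It was present in 40 of 76 member 3′UTR clusters (52.6%, interval 41.6% to 63.5%), against 47.7% over all genes and 10.9% of tiles of the members' 3′UTRs. Because AATAAA preceded by a suitable base is itself a match of this pattern, matches that did not contain AATAAA were also counted, and these were in 11 of 76 clusters (14.5%, all genes 14.5%, member tiles 6.503%). The 11 clusters include the leading sites of ARCN1, COPB1, SEC23A, MCFD2 and TMED4.

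The listed base of the leading deletion was a T in 65 of 86 clusters (75.6%, interval 65.5% to 83.4%, all genes 69.9%), an A in 9 and a C or a G in 6 each. In the 13 clusters whose leading deletion was not in a run of its base, so that its place is certain, it was a T in 6 (46.2%). In the 47 clusters with a signal, the leading deletion lay upstream of it in 19 (40.4%, all genes 45.5%), inside it in 5 (10.6%, all genes 10.95%) and downstream of it in 23 (48.9%, all genes 43.6%), which is close to the split over all genes. Shares of deleted tags under 30% had medians of 0.73% upstream of a signal (66 sites), 0.63% inside it (29) and 0.79% downstream of it (53), against 1.39% for 55 sites with no signal in the window, where the median depth was also lower (6034 tags against 16412 to 17256.5).

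Members with a longer canonical 3′UTR tended to hold more clusters (Spearman's rho 0.55 across 36 bound genes), which is a description across genes, not replicates. With only clusters under 30% counted, rho was 0.42. Between the highest number of tags in a member and its number of sites, rho was 0.89. What either relation owes to depth or RNA level was not tested. Sites under 30% in at least 2 separate 3′UTR clusters were found in 12 of 36 members (33.3%, all genes with such sites 24.9%).

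Other genes of the same pathway, a further list of 53, were bound in 36 cases (67.9%, all protein-coding genes 37.6%), with 168 sites. Of the 53, 35 held a 3′UTR site (66.0%, all protein-coding genes 31.8%). SURF4, a cargo receptor, had 1130 deletions in 26590 tags, more than any member. PDCD6, a calcium-binding regulator of COPII, had 739 in 23115 tags, and KDELR2, a receptor that retrieves ER proteins, had 714 in 33446 tags with 27 sites. CNIH1, a cargo receptor, had 679 in 29839 tags. ARFGEF2, an exchange factor for ARF1, had 456 in 7145 tags (6.38%). The 17 genes without a site included STX5 and YKT6, SNAREs of the Golgi, and KDELR3, a paralogue of KDELR2.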

How the data were processed

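The authors appended molecular identifiers to the reads, ran the CLIP Tool Kit (hg38 alignment, filtering, unique tags), pooled both replicates and called mutation sites induced by crosslinking, using deletions. The list was filtered on false discovery rate and on a fold whose definition is not given in the sources used here. The deposited values are counts, not normalized: tags over each site and tags with the deletion. Per-replicate counts and library totals were not analysed here, so depth is given per site, and a site may rest on a single replicate.

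The deletion is the centre of each 21-nt interval. The build was checked on the mitochondrial genome, 16569 bases long with its only N at 3107. Sites were placed on GENCODE release 44 by strand, over all transcripts of a gene. Each took the first feature that any transcript gave, in the order 3′UTR, 5′UTR, coding, noncoding exon, intron. A site in overlapping genes counted for each, giving 26444 pairs from 25045 sites in protein-coding genes. Distances are genomic, to the nearest annotated end downstream. Deletions in runs of a base are listed at the lowest coordinate, so their place within a run is uncertain. Clusters joined sites within 50 nt. Functions were tested on made-up genes with known answers. No test between groups was possible, and comparisons with all protein-coding genes are descriptions.

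Members, lists and the naming rule were chosen with earlier results of these data known. The rule names all members by role, in full the 12 with the most deletions at a site and all clusters of the 5 with the most clusters, with paralogues side by side. Alternatives changed the minimum of deletions or of their share, the transcripts, window, cluster and end distances and the motif. Tools were samtools 1.23.1, pysam 0.24.0 and Python 3.11.15, with pandas 2.3.3, scipy 1.17.1, numpy 2.4.6 and matplotlib 3.10.9.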

Additional observations from a re-analysis of the deposited data

How the results depend on the processing

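The values rest on 1 pooled list without replicate error or control library, and shares at sites of a few tags have wide intervals. Of 58 recomputed values, 33 moved by less than the interval or factor allowed and 25 by more. The share of member sites in 3′UTRs was 100% for sites of at least 20 deletions, of at least 50 and under 30%, 72.2% for sites with at least 10% of tags deleted, and 92.3% with 1 representative transcript per gene. The share within 100 nt of an end came to 70.1% for sites of at least 50 deletions, 19.2% with at least 10% deleted, 46.5% with 1 transcript, 50% with 1 site per cluster, and 53.8% within 50 nt. The share of clusters with a poly(A) signal came to 77.4% and 87.2% for sites of at least 20 and 50 deletions, 85.5% under 30%, 15.4% with at least 10% deleted and 26.3% in a window of 10 nt on each side. For the AUA motif it came to 68.1% for sites of at least 50 deletions, 65.5% under 30%, 19.2% with at least 10% deleted, 19.7% in the narrower window and 14.5% without AATAAA. Keeping only sites with at least 10% deleted left 36 sites in 22 members, 17 of them with a 3′UTR site, with a median share of 100%. With at least 50 deletions, COPA, COPG2, SEC24C and TMED1 lost their sites. A deleted T was found in 46.2% of the 13 clusters whose deleted base differs from both neighbours. What made the last value lower was not tested. No paired analysis was possible because the replicates were pooled before sites were called.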

Other observations

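Deletions listed inside the poly(A) signal of the members fell mostly on its first bases. On the minus strand, a deletion in the closing A run is listed past the signal where more A follow. One such site is in TMED7, with 157 deletions in 20852 tags, and sites of this kind are not counted here, which favours the first bases. On the plus strand, a deletion in the leading A pair is listed before the signal where another A precedes it. Sites of that kind in ARCN1 (358 deletions in 33751 tags) and TMED2 (204 in 21234) are not counted either, which works against the first bases. Of the 29 sites under 30% listed inside a signal, in 19 genes, 20 sites in 17 genes lay in the leading A pair. This pair is listed at its first base on the plus strand and at its second on the minus strand because of how runs are placed. On the plus strand 3 sites lay at base 1, 2 at base 3 and 2 at base 4. On the minus strand 17 sites lay at base 2, 3 at base 3 and 2 at base 6. Among them, MCFD2 had 280 deletions in 36082 tags, ARF1 had 192 in 43502 tags, ARF4 had 185 in 37148 tags and TFG had 159 in 30533 tags.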
